A study of Mus musculus with 11 samples.

Results

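Glycolysis turns glucose into pyruvate in the cytosol. Cells that lack oxygen or grow fast send much of the pyruvate on to lactate, and the hypoxia-inducible factors (HIFs) switch on the transporters and enzymes of this route together with genes for acid handling, mitophagy and collagen modification. HIF proteins are marked for destruction by prolyl hydroxylases that need oxygen, so their activity is set largely at the protein level, which arrays do not measure. In bone, the growth plate and parts of the marrow are known for low oxygen, and collagen-secreting cells need prolyl hydroxylases to fold their product.

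The 35 genes described here were listed by name: glucose transporters and hexokinases, the enzymes of the glycolytic chain, the lactate and pyruvate branch, the fructose-2,6-bisphosphate enzymes, and HIFs with their sensors and targets. Of these, 33 had a probe set carrying their symbol alone, among 18193 genes measured that way. Gpi1 and Eno1 were matched to no such probe set and were not analysed here. Each gene was read from its brightest such probe set over all 11 arrays, as a log2 signal (a step of 1 is a 2-fold change in signal) and as a percentile rank among the 45037 probe sets of the same array, with 100 the brightest. Different probe sets bind with different strength, so each gene was compared across populations and never with another gene.

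The study compared skeletal stem cells of bone marrow and periosteum with other marrow stroma, with osteoprogenitors and with blood cells, in mice. P-SSCs were Mx1+ Osteocalcin- periosteal cells of mice carrying Osteocalcin-GFP with Mx1-Cre and Rosa-Tomato, and BM-SSCs were Mx1+ Nes+ marrow cells of mice carrying Nestin-GFP with the same Cre and Tomato alleles. Both sorts also took CD105+ CD140a+ cells and removed CD45+, CD31+ and Ter119+ cells. The Mx1 promoter answers interferon and is also active in blood cells, and for these lines the paper describes irradiation with 9.5 Gy at 4 weeks of age, a transplant of wild-type marrow, and pIpC at 25 mg/kg over 10 days begun 6 to 8 weeks later. Nes+ BMSCs (Nestin-GFP, with or without Mx1) passed the same surface sort, CD51+ BMSCs were marrow cells sorted on integrin alpha V after the same depletion (the paper adds CD105+ and CD140a+ to this gate, the labels do not), Osx+ cells carried GFP driven by the Osterix (Sp7) promoter, and CD45+ cells were marrow blood cells. Each population had 2 arrays except the Nes+ BMSCs, which had 1. The sources used here state no age for the mice behind the CD45+, CD51+ and Osx+ arrays, and no genotype for the CD45+ and CD51+ ones. Each RNA came from pooled male and female mice, and where a population has 2 arrays they are biological repeats by the paper's methods. The source field of the Nes+ and Osx+ arrays names periosteal tissue, whereas the title of the Nes+ array places those cells in marrow.

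The sorted genes followed the labels in part. Ptprc, which encodes CD45, read 12.06 and 12.05 in CD45+ cells but also 10.23 and 10.17 in the CD51+ BMSCs, a population depleted of CD45+ cells. Pdgfra, which encodes the CD140a used to sort SSCs, read 11.29 on P-SSC array 1 but 4.41 on array 2, and 10.95 on BM-SSC array 1 but 6.90 on array 2, while CD45+ cells read 3.62 and 3.42. Stroma and skeletal progenitor markers (11 of 12 measured) came to a median of 4.51 on array 2 of the P-SSCs, near the 4.17 and 3.99 of CD45+ cells, so that array goes against its label in these markers. Other sort genes there did not: Eng, which encodes CD105, read 7.59 against 6.27 and 5.97 in CD45+ cells, and Ptprc read 4.60. Signals on that array were the least spread of all, with a median of 4.94 and an interquartile range of 1.812, which limits what these readings show. The widely expressed Actb was low on it too, at 8.34 against 12.81 to 14.11 on the other arrays. Sp7 read 8.93 and 8.58 in Osx+ cells and 4.30 and 4.05 in CD45+ cells. The chondrocyte marker list (13 of 13 genes measured) had a median of 13.24 and 13.21 in Osx+ cells, above every other array. The CD51+ arrays also held muscle signal, with Myh1 at 7.79 and 8.83 against 2.09 to 3.61 elsewhere. These marker signals moved with some of the results below, and their part in those results was not tested.

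The second array of each SSC population was unlike the rest. The 33 genes had a median signal of 5.55 on the P-SSC one and 6.44 on the BM-SSC one, where the other 9 arrays gave 7.70 to 8.67. As ranks the picture differed: the median percentile was 67.3 on the former but 85.1 on the latter, beside 86.2 to 92.1 elsewhere. Ribosomal protein genes had medians of 6.86 and 11.59 there, beside 11.86 to 12.93 elsewhere. Of the 33 genes, 26 read lower on array 2 than on array 1 in each SSC population, and the median change over all 33 was -1.42 in BM-SSCs and -2.59 in P-SSCs. Ranks on the 2 arrays lay within 10 percentile points for 33 genes in CD45+ cells, 32 in CD51+ BMSCs, 32 in Osx+ cells, 20 in BM-SSCs and 12 in P-SSCs. P-SSC array 2 was the lowest of the 11 arrays for 17 of the 33 genes. Results are therefore given over all 11 arrays and again from a 9-array fit without array 2 of both SSC populations, in which a lone SSC array takes its spread from the paired populations.

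**Figure D1:**
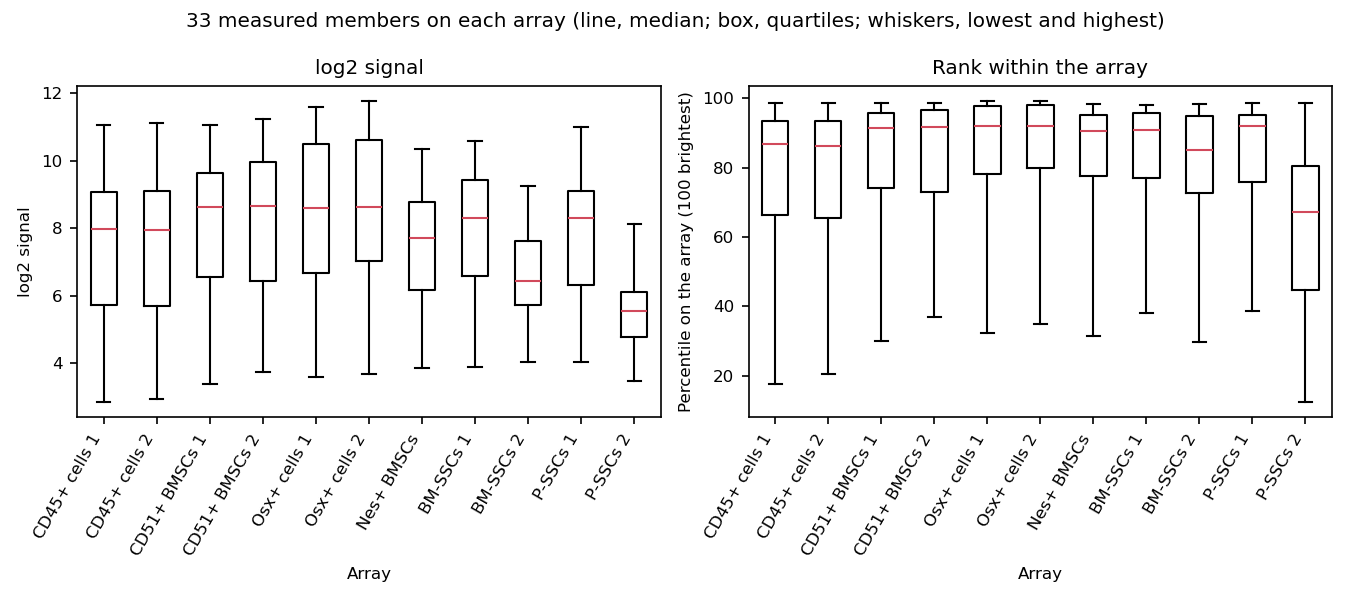
The log2 signal of the 33 measured genes (left) and their percentile rank within the array (right) are drawn on the vertical axes for each of the 11 arrays on the horizontal axes; lines are medians, boxes quartiles and whiskers the lowest and highest gene. P-SSC array 2 has the lowest median on both scales (5.55 and 67.3), while BM-SSC array 2 is low in log2 signal (6.44) and close to the other arrays in rank (85.1).

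Apart from array 2 of both SSC populations, 26 of the 33 genes stayed above the array's median on every array, as did 48.4% of all genes read by their brightest probe set. At or above the 90th percentile throughout were 9 of the 33 and 7.41% of all genes, and the 9 were Aldoa, Hif1a, Hk2, Ldha, Ndrg1, Pgam1, Pgk1, Slc2a1 and Tpi1. Osx+ cells had the highest population mean for 17 genes over all arrays, CD45+ cells for 6, CD51+ BMSCs for 4, and BM-SSCs and Nes+ BMSCs for 3 each. On the 9 arrays the count was 18 for Osx+ cells and again 6 for CD45+ cells, and the lowest mean then fell in the Nes+ BMSCs for 12 genes and in CD45+ cells for 10. These are counts of means, with no test. The same was not counted over all genes, so the counts cannot show whether the listed genes differ from genes at large. Signals on the single Nes+ array were also less spread, with an interquartile range of 2.435 against 2.832 to 3.563 on the rest of the 9. By rank the genes' median percentile was 90.6 there, 86.8 and 86.2 in CD45+ cells, and 90.7 to 92.1 on the other stromal arrays of the 9. In median rank the Nes+ BMSCs were thus above blood and just below the other stromal arrays.

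Tests were made with limma over all probe sets, and a gene passed at a Benjamini-Hochberg adjusted p under 0.05. In a test for any difference among the 6 populations 2 of the 33 genes passed, Hk3 (adjusted p = 0.00611) and Pfkfb4 (adjusted p = 0.0223), beside 8.6% of all genes. In the 9-array fit 31 passed, beside 75.9% of all genes, so both shares have to be read against a background that moved with the arrays used.

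Between Osx+ and CD45+ cells 4 of the 33 genes passed, 3 higher (4.91% of all genes) and 1 lower (7.05%) in Osx+ cells, where 12% of all genes passed. The 4 were P4ha2, Aldoc, Pfkm and, lower, Hk3. The 9-array fit had 18 higher (22% of all genes) and 7 lower (26.9%). The median difference of the 33 genes was 0.74 and that of all genes 0.02, and 25 of the 33 lay above 0 against 51.6% of all genes. The list was written with earlier results of these data known, so its lean towards Osx+ cells is a description.

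Between CD51+ BMSCs and CD45+ cells 1 gene passed, Pfkfb4, where 7.91% of all genes did. The 9-array fit had 12 higher (19.1% of all genes) and 10 lower (24.2%). Between CD51+ BMSCs and Osx+ cells 3 passed, Hk3 higher and Aldoc and Pdk1 lower in CD51+ BMSCs, beside 3.19% of all genes. The second form gave 6 higher (17.2%) and 16 lower (12.9%) in CD51+ BMSCs. The Osx+ arrays are shared by the comparisons of CD45+ cells, CD51+ BMSCs, BM-SSCs and P-SSCs with Osx+ cells, and the CD45+ arrays by 4 comparisons.

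**Figure D2:**
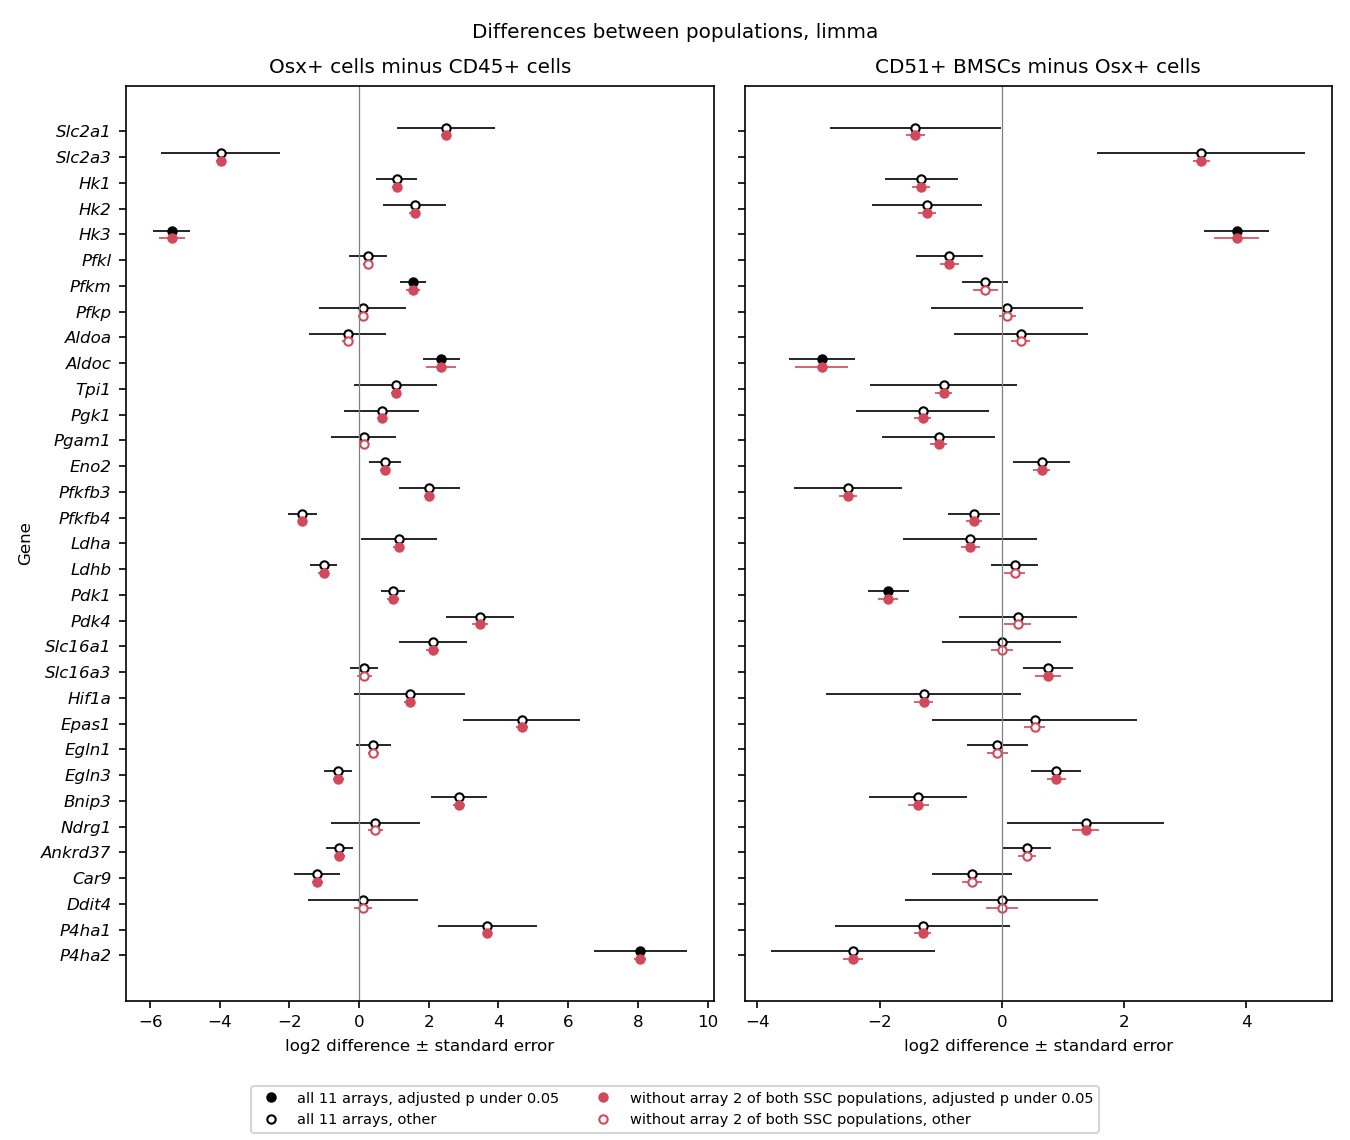
Points are log2 differences and bars their standard errors for the 33 genes, for Osx+ minus CD45+ cells (left) and CD51+ BMSCs minus Osx+ cells (right), over all 11 arrays (black) and without array 2 of both SSC populations (red); filled points passed at an adjusted p under 0.05. The differences themselves are the same in both forms, since neither comparison uses an SSC array; the standard error of Slc2a1 on the left was 1.40 in the first form and 0.156 in the second.

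The stretches before 3 genes are shown because these genes carry the main contrasts: Hk3 read highest in blood, and P4ha2 and Pdk1 read highest in Osx+ cells. They are taken from the 250 bases before a start site in RefSeq (GRCm38.p6), 5′ to 3′ on the gene's strand, and capitals mark the core of the hypoxia response element, ACGTG or GCGTG, on either strand. The annotated genes of Hk3 and Pdk1 reach 90 and 9 bases upstream of that start, and those bases are left out. The positions are chr13:55021476-55021635 on the minus strand for Hk3, chr11:54100674-54100923 on the plus strand for P4ha2 and chr2:71872974-71873214 on the plus strand for the first of 2 Pdk1 starts.
Hk3: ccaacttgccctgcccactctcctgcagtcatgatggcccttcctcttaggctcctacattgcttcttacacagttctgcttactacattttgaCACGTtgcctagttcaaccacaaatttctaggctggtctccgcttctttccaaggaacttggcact
P4ha2: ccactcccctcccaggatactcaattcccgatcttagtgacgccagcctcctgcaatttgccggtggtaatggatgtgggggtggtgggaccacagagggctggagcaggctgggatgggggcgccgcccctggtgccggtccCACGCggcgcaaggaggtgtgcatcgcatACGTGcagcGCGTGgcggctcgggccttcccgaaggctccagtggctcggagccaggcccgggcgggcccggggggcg
Pdk1: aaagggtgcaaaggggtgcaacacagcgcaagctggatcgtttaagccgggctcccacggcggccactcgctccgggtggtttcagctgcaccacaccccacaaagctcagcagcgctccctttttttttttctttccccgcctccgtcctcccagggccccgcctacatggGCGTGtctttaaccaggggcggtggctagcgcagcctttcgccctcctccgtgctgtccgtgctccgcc
P4ha2 holds 3 matches in this stretch and Hk3 and Pdk1 hold 1 each, so the gene of blood and those of Osx+ cells all have the core. Pfkfb4, also highest in blood, holds 1 match before the start in the table, which lies inside the annotated gene and is not printed. A fuller count used the 300 bases of the table, which add 50 after the start. Of the 35 listed genes 32 had an entry, and 29 of them (90.6%) held ACGTG or GCGTG on either strand in at least 1 start, against 46.7% of the 27025 genes in the table and 59.3% of the 14452 that also have a single-symbol probe set. Taken singly, ACGTG was present for 68.8% of the listed genes, 21.8% of all and 26.1% of those with a probe set, and GCGTG for 65.6%, 35.2% and 47.8%. The letters CACGTG count as overlapping matches on both strands. Eno2, Gpi1 and Tpi1 held neither string in this window. A match is a string of letters and was tested for no binding.

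At glucose entry, isoforms of one step had opposite orders in blood and Osx+ cells. Slc2a3 (GLUT3), a high-affinity glucose transporter of neurons and leukocytes, read 10.83 and 10.85 in CD45+ cells, 10.0045 and 10.25 in CD51+ BMSCs, 6.82 and 6.91 in Osx+ cells and 7.29 in Nes+ BMSCs. The BM-SSC arrays read 9.33 and 5.21 and the P-SSC arrays 8.57 and 3.48. Blood was thus above every other array, and both SSC pairs were split. Slc2a1 (GLUT1), the widely used basal transporter, went the other way, with 11.28 and 11.14 in Osx+ cells, 9.63 and 9.95 in CD51+ BMSCs and 8.71 and 8.72 in CD45+ cells. The first SSC arrays read 9.08 in BM-SSCs and 8.93 in P-SSCs, and the second read 6.07 and 4.51. Osx+ minus CD45+ cells was 2.49 ± 1.40 (SE) for Slc2a1 (adjusted p = 0.461) and -3.98 ± 1.70 for Slc2a3 (adjusted p = 0.259). Neither passed over all arrays. The 9-array fit gave an adjusted p of 8.48e-06 for Slc2a1 and 4.94e-07 for Slc2a3.

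The hexokinases trap glucose as glucose-6-phosphate, and Hk3 is the form of myeloid cells. Hk3 read 10.51 and 10.75 in CD45+ cells, 9.05 and 9.12 in CD51+ BMSCs, 4.58 and 5.91 in Osx+ cells, 6.72 and 5.63 in BM-SSCs, 6.34 and 5.93 in P-SSCs and 6.66 in Nes+ BMSCs. CD45+ cells lay above all other arrays, CD51+ BMSCs came next without overlap, and the remaining populations overlapped. The difference from CD45+ cells was -5.38 ± 0.535 in Osx+ cells (adjusted p = 0.000997). It was -4.46 ± 0.535 for BM-SSCs (adjusted p = 0.00363) and -4.50 ± 0.535 for P-SSCs (adjusted p = 0.0035). On the linear scale these are 41.8-fold, 22-fold and 22.6-fold lower signals. CD51+ BMSCs exceeded Osx+ cells by 3.84 ± 0.535 (adjusted p = 0.0119). The P-SSC call was lost with array weights (adjusted p = 0.0794) and with only the populations compared (adjusted p = 0.0959). A second Hk3 probe set ran the same way, with means of 9.42 in CD45+ cells, 7.70 in CD51+ BMSCs and 5.90 in Osx+ cells.

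Blood cell markers moved with Hk3. The list of 15 had a median of 11.57 and 11.40 in CD45+ cells, 10.04 and 9.97 in CD51+ BMSCs, 3.70 and 5.09 in Osx+ cells, 7.07 and 5.63 in BM-SSCs, 5.98 and 5.31 in P-SSCs and 5.05 in Nes+ BMSCs. All 15 passed as lower in Osx+ than in CD45+ cells, and 11 of 15 passed as higher in CD51+ BMSCs than in Osx+ cells. Within the Osx+ pair the neutrophil list (11 of 12 measured) had a median of 4.44 on array 1 and 8.41 on array 2, the array on which Hk3 was also higher. Across populations Hk3 did not follow that list throughout. The list was at 12.80 and 13.02 in CD51+ BMSCs, level with 12.87 and 12.85 in CD45+ cells, although Hk3 was lower in CD51+ BMSCs. It was at 9.98 and 8.55 in BM-SSCs, 9.61 and 6.31 in P-SSCs and 8.85 in Nes+ BMSCs. The part of blood cells in the Hk3 and Slc2a3 signal of the stromal sorts was not tested. In bulk RNA, fewer cells of a type and less RNA per cell cannot be told apart.

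Hk2, the inducible hexokinase and a HIF target, read highest in Osx+ cells (10.69 and 10.62), with 9.28 and 9.57 in CD51+ BMSCs and 9.06 and 9.06 in CD45+ cells. Hk1, the housekeeping form, also read highest there, at 9.49 and 9.45 against 8.39 and 8.39 in CD45+ cells. Osx+ minus CD45+ cells was 1.59 ± 0.898 for Hk2 (adjusted p = 0.464) and 1.08 ± 0.592 for Hk1 (adjusted p = 0.441), and both passed in the 9-array fit (adjusted p = 7.46e-05 and 0.000646).

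**Figure D3:**
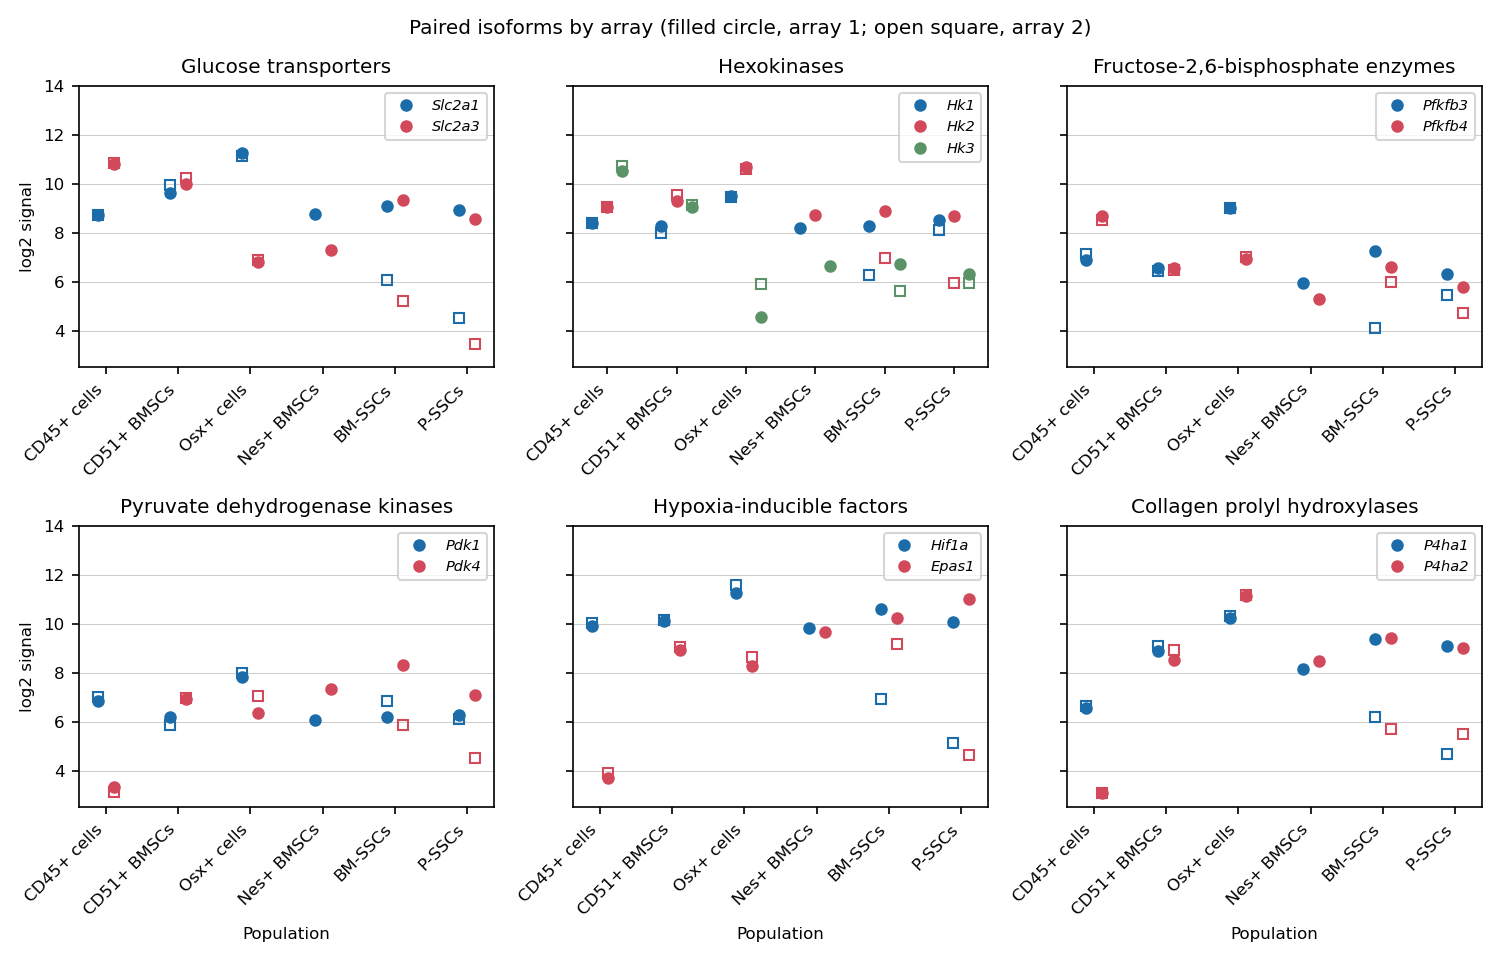
The log2 signal is plotted for each array of the 6 populations, 1 panel per group of isoforms, with filled circles for array 1 and open squares for array 2. Slc2a3, Hk3 and Pfkfb4 are highest in CD45+ cells and Slc2a1, Hk2 and Pfkfb3 in Osx+ cells; the open squares of the BM-SSCs and P-SSCs fall far below the circles for most of these genes.

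In the glycolytic chain 2 genes passed a pairwise test, both towards Osx+ cells. Aldoc, the aldolase best known from brain, read 7.82 and 8.11 in Osx+ cells, 5.56 and 5.64 in CD45+ cells, 5.80 and 4.23 in CD51+ BMSCs, 6.47 and 7.29 in BM-SSCs, 5.59 and 5.86 in P-SSCs and 6.19 in Nes+ BMSCs. Osx+ cells stood above all other arrays. The difference from CD45+ cells was 2.36 ± 0.540 (adjusted p = 0.0342), and CD51+ BMSCs were lower than Osx+ cells by -2.95 ± 0.540 (adjusted p = 0.037). Quantile normalization ended both calls (adjusted p = 0.185 and 0.238), and a replicate block ended the second (adjusted p = 0.059). Pfkm, the muscle form of phosphofructokinase, read 7.03 and 7.57 in Osx+ cells, 6.90 and 7.15 in CD51+ BMSCs, 5.72 and 5.81 in CD45+ cells, 6.83 and 6.56 in BM-SSCs, 6.88 and 6.18 in P-SSCs and 6.18 in Nes+ BMSCs. Its blood arrays were the lowest of the 11, and the stromal populations overlapped. Osx+ cells exceeded CD45+ cells by 1.53 ± 0.372 (adjusted p = 0.0423), a call lost under quantile normalization, median centring, a variance trend and a replicate block (adjusted p from 0.0562 to 0.0882). Muscle markers, which stood out in CD51+ BMSCs, had medians of 4.94 and 4.57 in Osx+ cells and 4.16 and 4.09 in CD45+ cells.

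The other chain enzymes passed no test over all arrays. Pgk1, phosphoglycerate kinase, ranged from 8.98 in Nes+ BMSCs to 11.68 on an Osx+ array when array 2 of both SSC populations was set aside, with blood at 11.03 and 10.97. Tpi1 ranged from 9.26 to 11.04 and Pgam1 from 7.70 to 9.85 on the same arrays. For each of these 3 the Nes+ BMSCs were lowest and an Osx+ array highest. Aldoa, the main aldolase of most tissues, spanned only 1.05 log2 units on these 9 arrays and stayed between the 98.0th and 98.7th percentile. Pfkp spanned 1.19. Eno2, neuron-specific enolase, was dim, with 2.84 and 2.93 in CD45+ cells and 5.44 and 4.04 in BM-SSCs. Pfkl depended on the probe set: its brightest one had means of 6.50 in Osx+ and 6.25 in CD45+ cells, whereas another had 7.13 and 5.79.

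The enzymes that make or remove fructose-2,6-bisphosphate, the activator of phosphofructokinase, again split by isoform. Pfkfb4 read 8.68 and 8.54 in CD45+ cells, 6.58 and 6.48 in CD51+ BMSCs, 6.94 and 7.02 in Osx+ cells, 6.60 and 5.99 in BM-SSCs, 5.79 and 4.71 in P-SSCs and 5.31 in Nes+ BMSCs. Blood exceeded every other array by more than 1 log2 unit. CD51+ BMSCs were lower than CD45+ cells by -2.09 ± 0.426 (adjusted p = 0.0316), BM-SSCs by -2.32 ± 0.426 (adjusted p = 0.0182), and in P-SSCs the difference was -3.36 ± 0.426 (adjusted p = 0.00448). In Osx+ cells the difference was -1.63 ± 0.426 (adjusted p = 0.0562), just outside the threshold. The CD51+ call was lost under quantile normalization (adjusted p = 0.136) and median centring (adjusted p = 0.058). With only the populations compared, the BM-SSC and P-SSC calls were lost too (adjusted p = 0.0822 and 0.131), and quantile normalization also ended the BM-SSC one (adjusted p = 0.158). Pfkfb3, the strongly kinase-directed and HIF-responsive form, read 9.01 and 9.02 in Osx+ cells and between 5.97 and 7.25 on the other arrays once array 2 of both SSC populations was set aside. Its Osx+ minus CD45+ difference was 2.01 ± 0.877 (adjusted p = 0.273), with an adjusted p of 1.76e-05 in the 9-array fit.

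At the branch between lactate and mitochondria 1 gene passed. Pdk1, which shuts pyruvate out of mitochondria by phosphorylating pyruvate dehydrogenase and is a HIF target, read 7.83 and 7.97 in Osx+ cells, 6.84 and 7.02 in CD45+ cells, 6.21 and 5.87 in CD51+ BMSCs, 6.21 and 6.83 in BM-SSCs, 6.25 and 6.10 in P-SSCs and 6.08 in Nes+ BMSCs. Osx+ cells were above all others and CD51+ BMSCs below blood. CD51+ BMSCs were lower than Osx+ cells by -1.86 ± 0.339 (adjusted p = 0.0365), a call lost under quantile normalization (adjusted p = 0.342), a variance trend (adjusted p = 0.0929) and a replicate block (adjusted p = 0.0609). Pdk4, the kinase of fasting and fat oxidation, was lowest in blood: it read 3.31 and 3.13 in blood and 6.36 to 8.30 on the stromal arrays other than array 2 of both SSC populations. Osx+ minus CD45+ cells was 3.47 ± 0.969 (adjusted p = 0.0704) and CD51+ BMSCs minus CD45+ cells 3.73 ± 0.969 (adjusted p = 0.0716).

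Ldha, which makes lactate, stayed above the 90th percentile on every array except P-SSC array 2 and read 11.42 and 11.77 in Osx+ cells against 10.47 and 10.45 in CD45+ cells (difference 1.13 ± 1.09, adjusted p = 0.875). Ldhb, the form suited to using lactate, was highest in Nes+ BMSCs at 8.74 and lowest on Osx+ array 1 among the 9 arrays at 6.68. Slc16a1 (MCT1), a proton-coupled lactate transporter, was alike in Osx+ cells (10.40 and 10.47) and CD51+ BMSCs (10.47 and 10.40), about 2 log2 units over blood (8.09 and 8.56) and the first SSC arrays (8.26 and 8.08). Slc16a3 (MCT4), the lactate exporter of glycolytic muscle, was dim everywhere, between 3.88 and 5.68 on the 9 arrays.

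Of the 2 HIF alpha genes, Epas1 separated blood from stroma. Epas1, which encodes HIF-2 alpha, read 3.68 and 3.88 in CD45+ cells, 8.93 and 9.05 in CD51+ BMSCs, 8.27 and 8.64 in Osx+ cells, 10.24 and 9.17 in BM-SSCs, 11.01 and 4.65 in P-SSCs and 9.65 in Nes+ BMSCs. All stromal arrays lay above blood, and of the stromal arrays only P-SSC array 2 lay within 1 log2 unit of it. No comparison passed over all arrays: BM-SSCs minus CD45+ cells was 5.92 ± 1.68 (adjusted p = 0.0729). In the 9-array fit the differences from blood were 5.20 ± 0.170 in CD51+ BMSCs (adjusted p = 4.48e-07) and 4.67 ± 0.170 in Osx+ cells (adjusted p = 5.08e-07). For BM-SSCs and P-SSCs, with 1 array each in that fit, they were 6.45 and 7.22. Those single arrays also exceeded Osx+ cells, by 1.78 in BM-SSCs and 2.55 in P-SSCs, whereas P-SSC array 2 (4.65) lay below them. Endothelial cells are a known source of Epas1, and the endothelial list (12 of 12 measured) had a median of 5.83 on BM-SSC array 1 and 6.62 on P-SSC array 1, against 3.66 to 4.95 on the CD45+, CD51+, Osx+ and Nes+ arrays. Pecam1, which encodes the CD31 that the sort removed, read 5.09 and 6.34 on those 2 arrays and 6.64 and 6.75 in CD45+ cells. The part of endothelial cells in the Epas1 signal was not tested.

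Hif1a stayed above the 90th percentile on every array except P-SSC array 2, and its blood level lay within the stromal range. It read 11.26 and 11.58 in Osx+ cells, 9.91 and 10.05 in CD45+ cells, 10.12 and 10.17 in CD51+ BMSCs, 9.81 in Nes+ BMSCs, and 10.59 and 10.07 on the first arrays of BM-SSCs and P-SSCs. On the second arrays it read 6.91 and 5.14. Osx+ minus CD45+ cells was 1.45 ± 1.60 (adjusted p = 0.951), with an adjusted p of 0.000179 in the 9-array fit. The oxygen sensor Egln1 (PHD2) spanned 0.90 log2 units on the 9 arrays. Egln3 (PHD3), itself a HIF target, was dim at 4.86 to 6.10.

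Among the HIF targets, the collagen prolyl 4-hydroxylases were higher in Osx+ cells than on any other array. P4ha2 read 3.08 and 3.08 in CD45+ cells, 8.51 and 8.92 in CD51+ BMSCs, 11.11 and 11.18 in Osx+ cells, 9.43 and 5.71 in BM-SSCs, 8.99 and 5.48 in P-SSCs and 8.49 in Nes+ BMSCs. Blood was lowest and Osx+ cells highest without overlap. Osx+ cells exceeded CD45+ cells by 8.07 ± 1.34 (adjusted p = 0.00931). In blood its rank was near the 23rd percentile, and as no detection calls were used here the difference is one of signal against a dim group. P4ha1 read 10.25 and 10.33 in Osx+ cells, 8.89 and 9.09 in CD51+ BMSCs and 6.57 and 6.64 in CD45+ cells (Osx+ minus CD45+ 3.68 ± 1.43, adjusted p = 0.199, and 6.37e-07 in the 9-array fit). Bnip3, a mitophagy receptor, had the same order, with 10.49 and 10.92 in Osx+ cells, 9.32 and 9.36 in CD51+ BMSCs and 7.81 and 7.87 in CD45+ cells (2.87 ± 0.799, adjusted p = 0.0703).

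Other targets did not share that order. Ndrg1 was highest in CD51+ BMSCs (10.40 and 10.52), and Nes+ BMSCs and the first SSC arrays (10.33 to 10.34) lay above Osx+ cells (9.42 and 8.77). The gap between Nes+ BMSCs and Osx+ cells was smaller on every other Ndrg1 probe set. It ran from means of 9.315 against 8.693 to 6.718 against 6.796. Ddit4 (REDD1), an inhibitor of mTORC1, read 9.84 on BM-SSC array 1 and 8.22 and 9.09 in CD45+ cells, so that its blood pair alone spread over 0.87. Car9, the carbonic anhydrase often used as a hypoxia marker, was dim, with 5.30 and 5.19 in CD45+ cells and 3.97 and 4.11 in Osx+ cells. Ankrd37 stayed between 4.69 and 5.56 on the 9 arrays.

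The SSC populations differed from blood in a few members and from each other in none over all arrays. Between BM-SSCs and CD45+ cells 2 passed, Hk3 and Pfkfb4, both lower in BM-SSCs, beside 11% of all genes. The 9-array fit had 10 higher (18.0% of all genes) and 10 lower (26.2%). Between P-SSCs and CD45+ cells the same 2 genes passed, both lower, beside 12.5% of all genes, and the second form gave 8 higher (24.4%) and 9 lower (30.9%). These comparisons share the CD45+ arrays. Epas1, P4ha1, P4ha2, Pdk4, Eno2, Pfkm, Bnip3 and Ndrg1 were higher in both SSC populations than in blood in the second form.

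Against Osx+ cells 0 members passed in limma for BM-SSCs (0.824% of all genes) and 0 for P-SSCs (1.08%). In that fit of 9 arrays 5 were higher (8.95%) and 14 lower (9.71%) in BM-SSCs than in Osx+ cells, and 4 were higher (13.1%) and 16 lower (17.7%) in P-SSCs. The genes lower in both were Slc2a1, Hk1, Hk2, Tpi1, Pgk1, Pgam1, Ldha, Pdk1, Slc16a1, Pfkfb3, Hif1a, Bnip3, P4ha1 and P4ha2; Slc2a3, Eno2, Epas1 and Ndrg1 were higher in both. For Slc2a1 the difference was -2.13 in BM-SSCs and -2.28 in P-SSCs, each from 1 SSC array. Chondrocyte markers, which read 13.24 and 13.21 in Osx+ cells, were at 8.36 and 5.35 on the first arrays of BM-SSCs and P-SSCs, and their part in these differences was not tested.

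Against CD51+ BMSCs 0 members passed in limma for BM-SSCs (0.83% of all genes) and 0 for P-SSCs (0.841%). On 9 arrays 4 were higher (5.42%) and 8 lower (11.8%) in BM-SSCs, and 3 were higher (12.3%) and 11 lower (20.5%) in P-SSCs. Slc16a1 was lower in both, by -2.17 and -2.35, and Epas1 higher in both, by 1.25 and 2.02, each from 1 SSC array. Erythroid cells are rich in Slc16a1, and the erythroid gene Slc4a1 read 10.66 and 10.07 in CD51+ BMSCs, 8.36 on BM-SSC array 1, 10.27 on P-SSC array 1 and 3.67 and 5.38 in Osx+ cells. The part of erythroid cells in the Slc16a1 signal was not tested.

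Between P-SSCs and BM-SSCs 0 members passed in limma (0.0% of all genes). On the first arrays alone 0 were higher in P-SSCs (0.478% of all genes) and 1 lower (1.98%): Eno2, with 4.32 against 5.44 (adjusted p = 0.0356). The second arrays ran the other way, with 4.77 in P-SSCs and 4.04 in BM-SSCs, and over all arrays the difference was -0.20 ± 0.469 (adjusted p = 0.98). The standard errors over all arrays limit what could be shown. For Slc2a1 the difference between P-SSCs and BM-SSCs was -0.86 ± 1.40 over all arrays, and for Hif1a -1.15 ± 1.60. On the first arrays the differences were -0.15 and -0.52. Each SSC population then has 1 array, so results on the first arrays hold no spread between SSC arrays.

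Between BM-SSCs and Nes+ BMSCs 0 members passed in limma (0.0% of all genes). The 9-array fit, which leaves 1 array against 1 and takes the spread from the other populations, had 9 higher (19.6% of all genes) and 2 lower (10.9%) in BM-SSCs. Those counts rest on single arrays and have no replicate check of their own. Slc2a3 read 7.29 in Nes+ BMSCs, between the BM-SSC arrays at 9.33 and 5.21, while Ldhb read 8.74 in Nes+ BMSCs, above both BM-SSC arrays at 7.36 and 6.44. Blood cell markers had a median of 7.07 on BM-SSC array 1 and 5.05 in Nes+ BMSCs.

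Other genes of these pathways were counted from 3 lists that leave out the members. Of 27 measured hypoxia pathway genes 6 were higher and 0 lower in Osx+ than in CD45+ cells over all arrays, where 4.91% of all genes were higher and 7.05% lower, with a median difference of 0.67 against 0.02 for all genes. The largest were Plod2, a collagen lysyl hydroxylase (3.55 and 3.59 in blood, 11.84 and 11.63 in Osx+ cells, difference 8.16 ± 1.32, adjusted p = 0.00831), Car12, a carbonic anhydrase (6.43 ± 0.896, adjusted p = 0.00429), Lox, the collagen cross-linking lysyl oxidase (6.34 ± 1.41, adjusted p = 0.0306), and Ak4, a mitochondrial adenylate kinase (3.50 ± 0.396, adjusted p = 0.00175). Plod2 and Lox, like P4ha2, act on collagen. Ak4 read 8.53 and 8.53 in Osx+ cells and at most 5.63 on every other array. It was lower than in Osx+ cells by -3.07 ± 0.396 in CD51+ BMSCs (adjusted p = 0.00892), by -3.42 ± 0.396 when BM-SSCs were compared (adjusted p = 0.0156) and by -3.41 ± 0.396 for P-SSCs (adjusted p = 0.013). Hilpda, which slows lipid breakdown in lipid droplets, was also lower than in Osx+ cells in BM-SSCs, by -2.52 ± 0.304 (adjusted p = 0.0169), and in P-SSCs, by -2.57 ± 0.304 (adjusted p = 0.0141).

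Of 16 measured other glycolysis genes 0 were higher and 2 lower in Osx+ than in CD45+ cells, beside the same shares of all genes, Ldhc (-2.61 ± 0.399, adjusted p = 0.0065) and the monocarboxylate transporter Slc16a7 (-2.58 ± 0.379, adjusted p = 0.00544). In CD51+ BMSCs Bpgm, the red cell enzyme of 2,3-bisphosphoglycerate, exceeded CD45+ cells by 2.77 ± 0.605 (adjusted p = 0.0401), and Pgam2, the muscle mutase, exceeded Osx+ cells by 2.32 ± 0.446 (adjusted p = 0.0452). On the CD51+ arrays erythroid markers had medians of 6.65 and 6.19 and muscle markers of 7.16 and 8.13. Elsewhere gene and markers differed in order. Bpgm read 6.814 and 7.668 in Osx+ cells (erythroid medians 3.797 and 4.654) but 6.084 on P-SSC array 1 (5.305). Pgam2 read 5.285 and 5.367 in CD45+ cells (muscle medians 4.155 and 4.09) but 3.639 and 3.998 in Osx+ cells (4.94 and 4.574). The part of red cells and muscle in the Bpgm and Pgam2 signals was not tested. Of 35 mitochondrial oxidation genes 0 passed in limma in either direction between Osx+ and CD45+ cells, with a median difference of -0.61. In the 9-array fit 0 were higher and 26 lower in Osx+ cells, where 22% of all genes were higher and 26.9% lower.

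**Figure D4:**
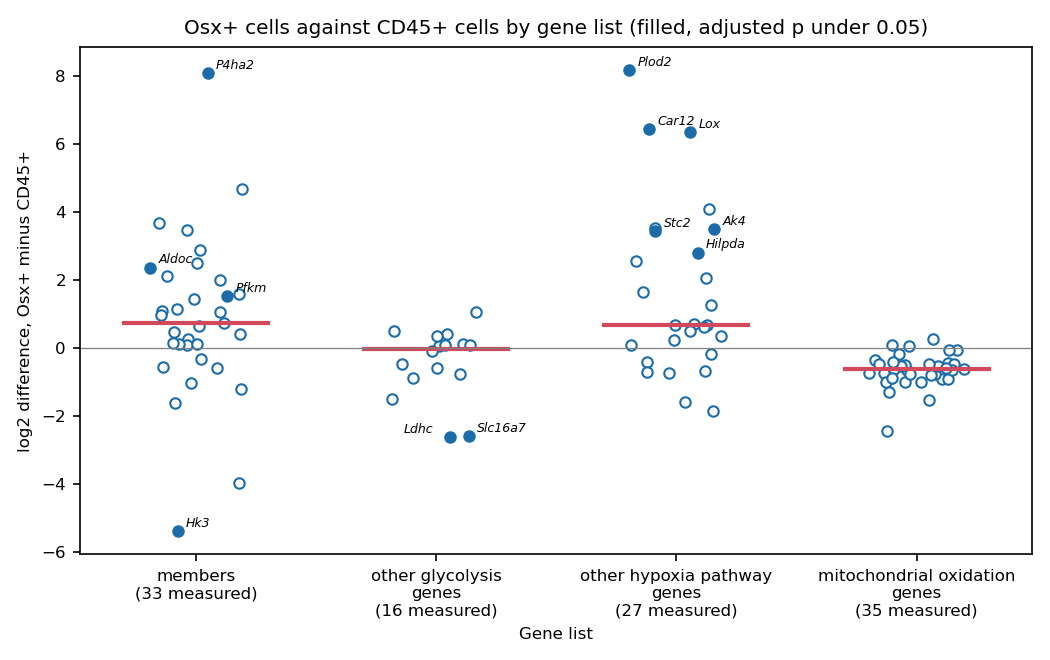
Each point is a gene's log2 difference between Osx+ and CD45+ cells (vertical axis) for the 33 members and 3 other lists (horizontal axis), filled where it passed at an adjusted p under 0.05 over all arrays; red lines are medians. The members and the other hypoxia pathway genes have medians of 0.74 and 0.67, the other glycolysis genes -0.02 and the mitochondrial oxidation genes -0.61.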

How the data were processed

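RNA of 6 sorted populations was read on 11 arrays, which the paper names as Affymetrix mouse A430. The authors deposited log2 values made with robust multichip averaging; limma is named in both the paper's methods and the submitters' processing notes, its version is not given in the sources used here. The values were used as they stand. After 64 control probe sets were left out, 45037 probe sets were tested without a filter on signal. Genes were named from the platform's annotation, in which 932 probe sets carry several symbols and 9160 tested ones none. limma 3.58.1 (R 4.3.3) fitted 1 mean for each population to the 11 arrays, and Benjamini-Hochberg adjustment ran over the 45037 probe sets of each comparison. Percentages of all genes count 18193 genes by their brightest probe set. The members and lists were chosen with earlier results of these data known. All measured members were open to be named, with array values for those that passed a test and for others picked after their values were seen. From each pathway list at most 4 genes were named for any 1 comparison, out of those that passed it. The limma fit was run on simulated arrays with known changes in Osx+ cells. Noise there was of the same size on every array, so that run does not bear on the 2 deviating arrays. The number of arrays limits the precision. Alternatives were each array left out, array 2 of both SSC populations left out, array weights, only the populations compared, quantile normalization, median centring, a filter on dim probe sets, a variance trend, a replicate block and the mean over a gene's probe sets. Array numbers did not pair the samples of most populations: deviations correlated between -0.267 and 0.784 across population pairs. Only the BM-SSC and P-SSC pair was clearly positive, at 0.784, and the main fit did not use that shared deviation.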

Additional observations from a re-analysis of the deposited data

How the results depend on the processing

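None of the 12 gene calls reversed under any alternative. Quantile normalization lost 6 of them, only the populations compared 3, a replicate block 3, median centring 2, a variance trend 2 and array weights 1. Leaving out a CD45+ array lost 8 or 10, a CD51+ or Osx+ array 6 or 7 and BM-SSC array 2 lost 1. With 2 arrays a population, few residual degrees of freedom and 2 deviating arrays limit every count. Causes were not tested. The background moved with the setting. With only the populations compared 44.9% of all genes passed for Osx+ minus CD45+ cells, against 12% over all arrays. These shares were 47.8% and 7.91% for CD51+ BMSCs minus CD45+ cells, and 23.9% and 3.19% for CD51+ BMSCs minus Osx+ cells. No such share is at hand for array weights, each array left out or the remaining alternatives, so those member counts were not read as a trait of these genes. Counts of members over all arrays, followed by those without array 2 of both SSC populations, with array weights and with only the populations compared, were 4, 25, 25 and 25 for Osx+ minus CD45+ cells, 1, 22, 22 and 22 for CD51+ BMSCs minus CD45+ cells, 3, 22, 20 and 19 for CD51+ BMSCs minus Osx+ cells and 2, 17, 1 and 0 for P-SSCs minus CD45+ cells. For BM-SSCs minus CD45+ cells the first 3 counts were 2, 20 and 5, and for the test over all populations 2, 31 and 30. Without array 2 of both SSC populations the counts of 0 became 19 (BM-SSCs minus Osx+ cells), 12 (BM-SSCs minus CD51+ BMSCs), 20 (P-SSCs minus Osx+ cells), 14 (P-SSCs minus CD51+ BMSCs), 1 (P-SSCs minus BM-SSCs) and 11 (BM-SSCs minus Nes+ BMSCs).

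Quantile normalization gave 0 for CD51+ BMSCs minus CD45+ cells and 1 each for CD51+ BMSCs minus Osx+ cells and BM-SSCs minus CD45+ cells. Median centring gave 0 for CD51+ BMSCs minus CD45+ cells and 1 for P-SSCs minus Osx+ cells. A variance trend gave 4 for BM-SSCs minus CD45+ cells. The mean over a gene's probe sets gave 4 for CD51+ BMSCs minus CD45+ cells and for the test over all populations, 6 for BM-SSCs and for P-SSCs minus CD45+ cells, and 1 for BM-SSCs and for P-SSCs minus Osx+ cells. With the array number as a replicate block the count was 2 for CD51+ BMSCs minus CD45+ cells and 1 for CD51+ BMSCs minus Osx+ cells, and 4 for Osx+ minus CD45+ cells; it moved no other count by over 1.5 times.

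With each array left out in turn the counts ran from 1 to 9 (Osx+ minus CD45+ cells), 0 to 6 (CD51+ BMSCs minus CD45+ cells), 0 to 4 (CD51+ BMSCs minus Osx+ cells), 0 to 7 (BM-SSCs minus CD45+ cells), 0 to 2 (BM-SSCs minus Osx+ cells), 0 to 4 (BM-SSCs minus CD51+ BMSCs), 0 to 16 (P-SSCs minus CD45+ cells), 0 to 23 (P-SSCs minus Osx+ cells), 0 to 20 (P-SSCs minus CD51+ BMSCs), 0 to 9 (P-SSCs minus BM-SSCs), 0 to 0 (BM-SSCs minus Nes+ BMSCs) and 0 to 22 (the test over all populations). In each of the P-SSC comparisons and the test over all populations the highest count came without P-SSC array 1, which leaves array 2 alone. Without any 1 of the CD45+ or Osx+ arrays the count was 1 for Osx+ minus CD45+ cells, and without any 1 of the CD45+, CD51+ or Osx+ arrays it was 0 for CD51+ BMSCs minus CD45+ cells. Leaving out 1 SSC array, first or second, gave 8 (BM-SSCs) or 9 (P-SSCs) for Osx+ minus CD45+ cells.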
